A study of Mus musculus with 8 samples.

Results

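The cell cycle and DNA replication genes described here are 39 genes chosen by name, and all 39 were found among the 34745 genes of the deposited table of mouse skin RNA sequencing. They were sorted by textbook role into 12 S-phase genes, 24 mitotic genes and 3 regulators of G1, the phase before DNA synthesis. The study compared 4 libraries of mice named NcstnΔKC with 4 libraries of normal mice. The NcstnΔKC mice were Ncstn flx/flx and Krt14 CreER+/-: floxed for Ncstn, which encodes the γ-secretase subunit nicastrin, with a tamoxifen-inducible Cre driven by the promoter of Krt14, a keratin of basal keratinocytes. Tamoxifen was begun at 8 weeks of age with 5 daily doses of 20 mg per kg, was repeated every 10 days by oral gavage, and skin lesions were taken at 16 weeks. The protocol gives the normal mice the same alleles with corn oil in place of tamoxifen, while their genotype label reads wildtype, and the mice of both groups are labelled male. Nothing in the labels says that each library came from its own mouse, so the p-values measure the spread between these libraries, which may in part be technical. Sex-linked counts, given below, differed between libraries of each group.

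A cell that divides first licenses its replication origins. Cdc6 and Cdt1 load the MCM helicase, made of Mcm2 to Mcm7, onto DNA in G1, cyclin-dependent kinases then start synthesis, and Pcna clamps the polymerases to the template while ribonucleotide reductase supplies deoxynucleotides. Transcription of this set in S phase is known to be driven by E2F factors. Genes for mitosis are switched on later, in G2, by the MuvB complex with B-Myb and FoxM1, and their products build the spindle, separate the chromosomes and divide the cell. In skin most dividing cells are basal keratinocytes of the epidermis and matrix cells of growing hair follicles.

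Total counts ran from 5835422 to 12893174 per library, and every NcstnΔKC library was deeper than every normal one. Counts of Ncstn were 60.7, 61.9, 61.3 and 58.4 CPM (the count scaled to a common library size) in the normal libraries, given here and below in the order of replicates 1 to 4, and 66.8, 50.2, 57.8 and 56.2 CPM in the NcstnΔKC libraries. They cover the whole gene in every cell type of the skin, so they do not check the deletion of the floxed part. Xist, the RNA of the inactive X chromosome in females, was counted 22304 to 37109 times in replicates 3 and 4 of both groups and 4 to 9 times in replicates 1 and 2, and the summed counts of 4 Y-linked genes went the other way (0 to 3 against 886 to 4453), although all mice are labelled male. The groups were balanced over this split, and results are given with all 8 libraries and within each side of it. Basal keratinocyte markers were present in every library: Krt5 stood at 2576 to 3071 CPM in normal libraries and 3899 to 6298 CPM in NcstnΔKC libraries. Normal replicate 2 stood apart by markers of hair matrix, shaft and inner root sheath, which summed to 42190 CPM in it, to between 50.5 and 508 CPM in the other normal libraries and to between 10.7 and 12.2 CPM in NcstnΔKC libraries.

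Promoter windows of RefSeq (build GRCm38.p6, 250 bases before to 50 bases after the start) were held for 31 of the 39 genes, 11 of them S-phase and 19 mitotic. Searched on both strands were CCAAT (a box bound by NF-Y), TTTGAA or TTTAAA (forms of the cell cycle gene homology region, CHR, known as a MuvB site) and 4 forms of the E2F site, TTTGGCGC, TTTCCCGC, TTTCGCGC and TTTGCCGC. An E2F form occurred in 7 of 11 S-phase windows and 1 of 19 mitotic windows (Cdk1), and in 2.26% of all 32851 windows. CCAAT together with a CHR form occurred in 16 of 19 mitotic windows and 3 of 11 S-phase windows, and in 10.7% of all windows. Among the mitotic genes this pair did not follow the direction of change: it was found in 8 of 11 windows of genes that were higher in NcstnΔKC libraries, in 3 of 3 that were lower and in 5 of 5 that did not pass the test. A match is a description of letters and no evidence of binding. The 250 bases before the start are printed 5′ to 3′ for the 2 S-phase and 2 mitotic genes with the lowest p that have a window, and for the 3 mitotic genes that fell, with matches in capitals on either strand. They were chosen by p and direction, not by their letters, so they do not show the counts above: neither S-phase stretch holds an E2F form, and the one E2F form printed is that of Cdk1. The E2F form of Cdt1, the TTTGAA of Kif23 and a TTTGAA of Cenpf lie in the 50 bases after the start, which are not shown.
Pcna, chr2:132253181-132253430, minus strand: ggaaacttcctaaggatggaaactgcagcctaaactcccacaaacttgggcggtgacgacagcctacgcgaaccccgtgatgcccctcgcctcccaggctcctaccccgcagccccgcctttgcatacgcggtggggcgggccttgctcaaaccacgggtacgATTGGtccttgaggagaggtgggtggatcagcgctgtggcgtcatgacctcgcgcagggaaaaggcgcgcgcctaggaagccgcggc
Cdt1, chr8:122567765-122568014, plus strand: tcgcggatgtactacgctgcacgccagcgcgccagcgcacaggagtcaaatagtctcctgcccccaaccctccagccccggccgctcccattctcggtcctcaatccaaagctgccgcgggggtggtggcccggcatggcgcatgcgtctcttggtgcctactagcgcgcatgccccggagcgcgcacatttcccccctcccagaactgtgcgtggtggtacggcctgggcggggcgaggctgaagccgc
Cdk1, chr10:69352913-69353162, minus strand: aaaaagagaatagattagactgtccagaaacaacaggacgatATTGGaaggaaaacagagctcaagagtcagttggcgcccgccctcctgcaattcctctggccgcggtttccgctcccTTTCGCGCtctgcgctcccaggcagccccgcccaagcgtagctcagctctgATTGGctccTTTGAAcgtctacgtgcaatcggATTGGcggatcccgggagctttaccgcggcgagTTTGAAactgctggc
Ccnb1, chr13:100786487-100786736, minus strand: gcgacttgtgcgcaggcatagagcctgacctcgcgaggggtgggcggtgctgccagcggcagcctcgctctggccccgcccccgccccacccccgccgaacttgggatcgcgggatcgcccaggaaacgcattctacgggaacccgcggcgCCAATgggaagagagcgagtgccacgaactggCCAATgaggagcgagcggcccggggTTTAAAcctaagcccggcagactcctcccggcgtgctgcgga
Kif23, chr9:61946800-61947049, minus strand: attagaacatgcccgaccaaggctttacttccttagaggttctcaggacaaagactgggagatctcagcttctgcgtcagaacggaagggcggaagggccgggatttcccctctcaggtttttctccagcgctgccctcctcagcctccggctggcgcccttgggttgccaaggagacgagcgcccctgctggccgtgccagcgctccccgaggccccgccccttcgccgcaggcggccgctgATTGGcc
Cenpf, chr1:189688087-189688336, minus strand: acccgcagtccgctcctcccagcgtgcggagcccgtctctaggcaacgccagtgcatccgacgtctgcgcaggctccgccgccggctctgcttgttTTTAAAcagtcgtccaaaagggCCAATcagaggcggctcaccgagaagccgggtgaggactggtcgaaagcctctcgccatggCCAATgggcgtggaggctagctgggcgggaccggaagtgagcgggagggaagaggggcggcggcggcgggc
Mki67, chr7:135716380-135716629, minus strand: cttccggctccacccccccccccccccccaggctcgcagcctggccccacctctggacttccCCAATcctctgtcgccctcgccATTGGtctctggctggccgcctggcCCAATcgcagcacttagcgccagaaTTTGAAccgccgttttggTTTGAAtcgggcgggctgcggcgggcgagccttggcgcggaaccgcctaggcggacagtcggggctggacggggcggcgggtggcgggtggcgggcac

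Of the 39 genes, 25 were higher, 3 were lower and 11 did not pass the test (edgeR's quasi-likelihood test, Benjamini-Hochberg adjusted p under 0.05 over 15684 genes). Of all tested genes 21.4% were higher and 22.7% lower, so the share higher among the 39 (64.1%) was above that background and the share lower (7.69%) was below it. The groups did not overlap for 23 of the genes: NcstnΔKC libraries were all above normal ones for 21 genes and all below for 2, where 20.9% and 20.7% of tested genes were so arranged. The median log2 fold change was 1.0 for the S-phase genes and 0.73 for the mitotic genes, against -0.02 for all tested genes. In whole skin a change in the number of dividing cells and a change in RNA per cell cannot be told apart.

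**Figure D1:**
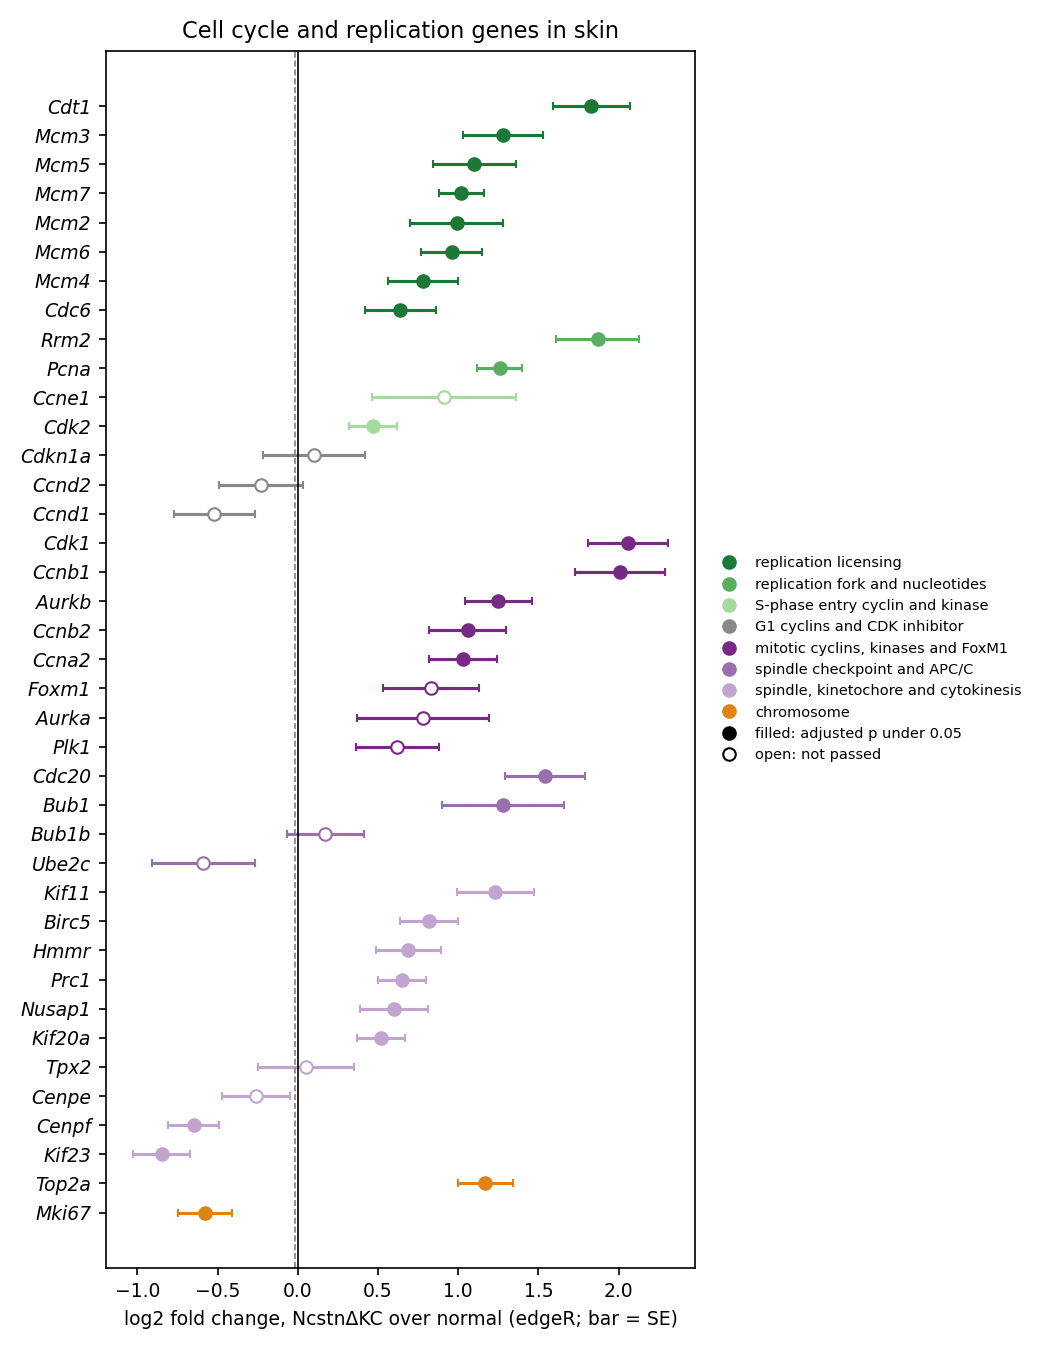
Log2 fold change of each of the 39 genes, NcstnΔKC over normal, with its standard error as the bar; colours give roles, filled points passed at an adjusted p under 0.05, and the dashed line is the median of all tested genes (-0.02). The S-phase genes all lie right of 0, while Kif23, Cenpf and Mki67 are the filled points left of it.

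All 8 genes of replication licensing rose, by 0.64 to 1.83 on the log2 scale. Cdt1 (ENSMUSG00000006585, chr8:122568015-122573128 in mm10), the loader of the MCM helicase, was at 7.59, 3.83, 4.38 and 4.43 CPM in normal libraries. It was at 20.9, 18.4, 17.3 and 15.6 CPM in NcstnΔKC libraries, a log2 fold change of 1.83 ± 0.24 (SE; edgeR adjusted p = 0.000644). Every NcstnΔKC library was above every normal one, and normal replicate 1 was the nearest to them. Mcm7 (ENSMUSG00000029730, chr5:138164583-138172422), a helicase subunit, was at 28.9, 25.0, 26.3 and 24.8 CPM in normal libraries and 60.9, 57.8, 50.6 and 43.6 CPM in NcstnΔKC libraries, a change of 1.02 ± 0.14 (adjusted p = 0.000854). The groups were again apart. Of the other helicase subunits Mcm3 rose by 1.28, Mcm5 by 1.10, Mcm2 by 0.99, Mcm6 by 0.96 and Mcm4 by 0.78.

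The MCM subunits form a complex with equal parts, and their NcstnΔKC values were uneven between libraries in a shared way. Mcm2 was at 23.4 CPM in NcstnΔKC replicate 1 and 51.7 to 64.1 CPM in the other 3, against 20.3 to 31.1 CPM in normal libraries. Mcm5 was at 24.8 CPM in NcstnΔKC replicate 1 and 40.5 to 58.6 CPM in the other 3. Mcm7 did not have this pattern, since NcstnΔKC replicate 1 held its highest value. Its value is uncertain: 45.0% of its 31-base stretches also occur in Gm5487, and its exons share 321 bases on the opposite strand with Ap4m1, counted at a mean of 17.0 CPM in normal and 28.5 CPM in NcstnΔKC libraries. The groups overlapped for Mcm2 and Mcm4 and were apart for Mcm3, Mcm5, Mcm6 and Mcm7. Cdc6, the other loading factor, rose least (0.64 ± 0.22, adjusted p = 0.0413). Its call was lost without NcstnΔKC replicate 2 (0.50, adjusted p = 0.104) or 4 (0.70, 0.0591) and without normal replicate 2, 3 or 4 (0.68, 0.66 and 0.70, with adjusted p of 0.0603, 0.074 and 0.0679). That of Mcm2 was lost without NcstnΔKC replicate 2 (0.83, adjusted p = 0.061) or 3 (0.93, 0.0573) and without normal replicate 3 (1.02, 0.0515) or 4 (0.97, 0.0575).

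At the fork, Pcna and Rrm2 both rose. Pcna (ENSMUSG00000027342, chr2:132249162-132253314), the sliding clamp, was at 17.5, 19.6, 16.8 and 16.9 CPM in normal libraries and 35.7, 44.7, 46.5 and 43.0 CPM in NcstnΔKC libraries. Its change of 1.26 ± 0.14 had the lowest p of the 39 genes (adjusted p = 0.000284). Rrm2 (ENSMUSG00000020649, chr12:24708241-24714146), the small subunit of ribonucleotide reductase, was at 10.2, 11.3, 11.9 and 6.64 CPM in normal libraries and 22.7, 44.7, 40.1 and 37.8 CPM in NcstnΔKC libraries (1.87 ± 0.26, adjusted p = 0.000825). For both genes the groups were apart and NcstnΔKC replicate 1 was the lowest of its group. Part of the Pcna sequence is shared with a processed copy: 38.7% of its 31-base stretches also occur in Pcna-ps2, which was counted at a mean of 15.8 CPM in normal and 24.9 CPM in NcstnΔKC libraries.

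The pair that starts S phase was less clear. Cdk2, the kinase, was at 29.8, 22.6, 22 and 21.2 CPM in normal libraries and 29.4, 36.6, 34.0 and 32.6 CPM in NcstnΔKC libraries, a rise of 0.47 ± 0.15 (adjusted p = 0.0339). The groups overlapped through normal replicate 1, and the call was lost without any of NcstnΔKC replicates 2, 3 and 4 or normal replicates 2, 3 and 4 (0.43 to 0.50, adjusted p between 0.0562 and 0.0804). Ccne1, cyclin E, its partner, had a change of 0.91 ± 0.45 that did not pass (adjusted p = 0.132). It was thinly counted, from 0.912 to 3.19 CPM in normal libraries and 2.10 to 4.91 CPM in NcstnΔKC libraries, with 7 counts at the lowest.

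In all, 11 of the 12 S-phase genes rose and 0 fell, and 8 had groups that were apart. The count of 0 lower was the same at an unadjusted p under 0.05 and with DESeq2 and limma-voom, which called 11 and 9 genes higher, where 23.9% and 20.2% of all genes were higher. The heat map by library shows the rise and the paler column of NcstnΔKC replicate 1.

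**Figure D2:**
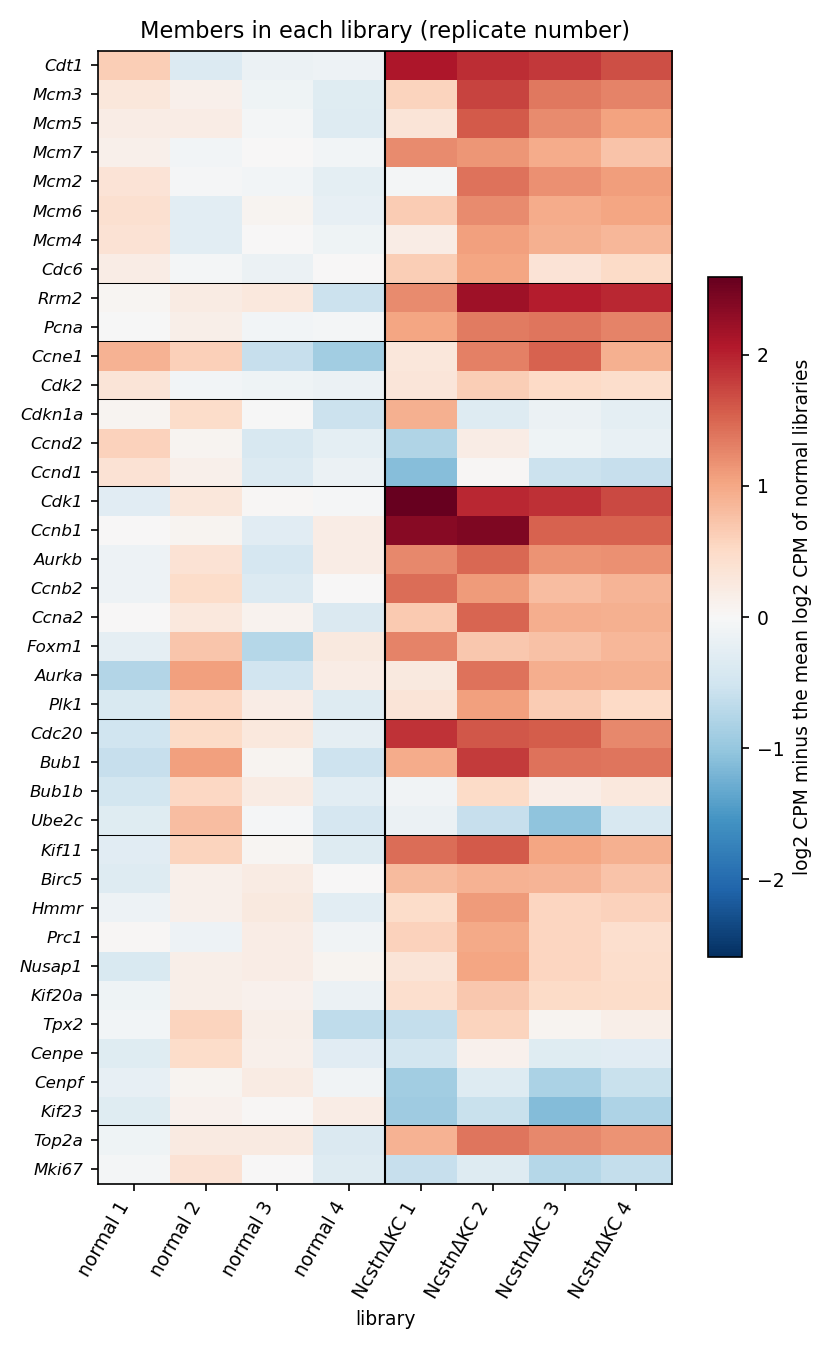
Log2 CPM of each gene (vertical axis) in each library (horizontal axis), minus the gene's mean over the 4 normal libraries; red is above and blue below that mean, and lines part the roles. The 8 licensing genes at the top are red in most NcstnΔKC libraries and NcstnΔKC replicate 1 is the palest for Mcm2 to Mcm5, whereas Cenpf, Kif23 and Mki67 near the bottom are blue in all 4.

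None of the 3 G1 regulators passed the test: 0 of 3 were called by edgeR, DESeq2 or limma-voom, and 0 of 3 had an unadjusted p under 0.05. Ccnd1, cyclin D1, a sensor of growth signals, was at 72.9, 61.5, 43.5 and 50.3 CPM in normal libraries and 25.9, 57.5, 38.3 and 37.0 CPM in NcstnΔKC libraries (-0.52 ± 0.25, adjusted p = 0.122). Without NcstnΔKC replicate 2 its value was -0.75, with an adjusted p of 0.0333. Ccnd2, cyclin D2, was at 479, 331, 238 and 267 CPM in normal libraries and 184, 362, 294 and 279 CPM in NcstnΔKC libraries (-0.23 ± 0.26, adjusted p = 0.498). For both cyclins the groups overlapped, normal replicate 1 was the highest normal library and NcstnΔKC replicate 1 the lowest of all 8. With edgeR and scaling by basal keratinocyte genes both cyclins were called lower, where 37.1% of all genes were lower. Ccnd1 was then at -1.03 (adjusted p = 0.00687) and Ccnd2 at -0.72 (adjusted p = 0.033). Cdkn1a, the p21 inhibitor of cyclin-dependent kinases, was at 111, 147, 105 and 72.1 CPM in normal libraries and 199, 83.4, 95.0 and 88.3 CPM in NcstnΔKC libraries (0.10 ± 0.32, adjusted p = 0.821). NcstnΔKC replicate 1 was the highest of all 8, and without that library the value was -0.28. Within the libraries with Xist, which do not include that library, the value was 0.09.

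Of the 24 mitotic genes, 14 rose, 3 fell and 7 did not pass. Among the 8 cyclins, kinases and FoxM1, 5 rose and 0 fell. Cdk1 (ENSMUSG00000019942, chr10:69336635-69352938), the kinase that drives entry into mitosis, was at 3.49, 5.24, 4.38 and 4.17 CPM in normal libraries and 25.8, 16.6, 15.8 and 14.0 CPM in NcstnΔKC libraries. The change of 2.06 ± 0.25 (edgeR adjusted p = 0.00042) was the largest of the 39 genes. Ccnb1 (ENSMUSG00000041431, chr13:100778650-100786570), cyclin B1, its partner, was at 3.64, 3.83, 2.97 and 4.17 CPM in normal libraries and 18.5, 19.3, 10.5 and 10.5 CPM in NcstnΔKC libraries (2.01 ± 0.28, adjusted p = 0.000796). For kinase and partner the ratio of group means was 4.18-fold and 4.02-fold, and every NcstnΔKC library was above every normal one. Of the 31-base stretches of Ccnb1, 47.9% also occur in other annotated genes, Ccnb1-ps among them, whose share of the reads was not tested. Such stretches made up 27.1% of Cdc20, 20.6% of Rrm2, 15.5% of Plk1 and 13.3% of Cdc6, and at most 8.48% of every other member apart from Pcna and Mcm7.

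The other cyclins of this set rose as well. Ccna2, cyclin A2, which acts in S phase and G2, was at 30.1, 36.1, 31.8 and 23.2 CPM in normal libraries and 48.0, 85.3, 57.5 and 56.4 CPM in NcstnΔKC libraries (1.03 ± 0.21, adjusted p = 0.00454). Ccnb2, cyclin B2, rose by 1.06 (adjusted p = 0.0081). Aurkb, the kinase of the chromosomal passenger complex, was at 4.71, 6.65, 3.81 and 5.86 CPM in normal libraries and 12.2, 14.4, 11.5 and 11.6 CPM in NcstnΔKC libraries (1.25 ± 0.21, adjusted p = 0.00211). The groups were apart for all 3 of these genes.

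Foxm1, Plk1 and Aurka were in the same direction and did not pass. Foxm1, the transcription factor of the G2 programme, was at 6.99, 13.5, 4.94 and 9.77 CPM in normal libraries and 20.1, 13.3, 13.8 and 14.9 CPM in NcstnΔKC libraries (0.83 ± 0.30, adjusted p = 0.0509). Aurka, a kinase of the spindle poles, was at 3.19, 11.3, 3.81 and 6.12 CPM in normal libraries and 6.38, 14.3, 10.4 and 10.2 CPM in NcstnΔKC libraries (0.78 ± 0.41, adjusted p = 0.152). Plk1, a kinase of many mitotic steps, ran from 5.47 to 10.5 CPM in normal libraries and 9.06 to 15.0 CPM in NcstnΔKC libraries (0.62 ± 0.26, adjusted p = 0.0821). For each of the 3 genes normal replicate 2 was the highest normal library. Without it the values were 1.16 for Foxm1 (adjusted p = 0.0119), 1.29 for Aurka (0.02) and 0.88 for Plk1 (0.0275), and all 3 passed. Foxm1, whose p lay next to the threshold, passed in 11 of 26 alternatives, among them DESeq2 size factors (adjusted p = 0.0466), DESeq2's Wald test (0.0207), limma-voom (0.0307), total counts alone (0.0125), no filter (0.0276) and Xist as a covariate (0.0495). Over all alternatives its adjusted p ran from 0.00809 to 0.513. Plk1 also passed without NcstnΔKC replicate 1 (0.73, 0.0485).

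Checkpoint and anaphase genes split. Cdc20, the activator of the anaphase-promoting complex, was at 4.71, 9.47, 8.19 and 5.73 CPM in normal libraries and 24.7, 20.6, 20.1 and 16.0 CPM in NcstnΔKC libraries (1.54 ± 0.25, adjusted p = 0.00169), with groups apart. Bub1, a checkpoint kinase, rose by 1.28 ± 0.38 (adjusted p = 0.0222), but the groups overlapped and its call was lost without NcstnΔKC replicate 2 (1.14, adjusted p = 0.0574). Bub1b, the checkpoint protein BubR1, had a change of 0.17 ± 0.24 (adjusted p = 0.588), from 12.3 to 24.8 CPM in normal libraries and 16.0 to 24.1 CPM in NcstnΔKC libraries. Ube2c, the ubiquitin-conjugating enzyme of the complex, had a value of -0.59 ± 0.32 (adjusted p = 0.156), and this value is uncertain. Its exons share 592 bases on the opposite strand with Tnnc2, a troponin of fast muscle counted at a mean of 1083 CPM in normal and 19.0 CPM in NcstnΔKC libraries, and the strand setting of the counting was not given in the sources used here. Exon overlaps of similar or greater length on the opposite strand were those of Kif20a (1271 bases, Cdc23), Ccnd1 (1100, Oraov1), Prc1 (911, Rccd1) and Ccna2 (510, Exosc9).

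Among 10 genes of the spindle, kinetochore and cytokinesis, 6 rose and 2 fell. Kif11, the motor that pushes spindle poles apart, was at 17.9, 32.9, 22.9 and 17.5 CPM in normal libraries and 60, 65.9, 44.9 and 41.8 CPM in NcstnΔKC libraries (1.23 ± 0.24, adjusted p = 0.00409). Birc5 (survivin, of the passenger complex) rose by 0.82, Hmmr (a spindle microtubule protein) by 0.69, Prc1 (a bundler of the central spindle) by 0.65, Nusap1 (a spindle microtubule protein) by 0.60 and Kif20a (a central spindle motor) by 0.52. The groups were apart for all 6. The calls of 2 of them depended on single libraries: Hmmr was lost without NcstnΔKC replicate 2 (0.54, adjusted p = 0.0515). Nusap1 was lost without NcstnΔKC replicate 2, 3 or 4 (0.45, 0.63 and 0.66, with adjusted p of 0.0975, 0.07 and 0.0528) and without normal replicate 1 or 4 (0.56 and 0.69, with 0.0604 and 0.0555).

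Kif23 and Cenpf fell. Kif23 (ENSMUSG00000032254, chr9:61917280-61946799), the motor subunit of the centralspindlin complex of cytokinesis, was at 16.1, 21.6, 20.3 and 22.8 CPM in normal libraries and 10.6, 13.5, 9.19 and 11.5 CPM in NcstnΔKC libraries. It fell by 0.85 ± 0.18 on the log2 scale (adjusted p = 0.0057), with every NcstnΔKC library below every normal one. Cenpf (ENSMUSG00000026605, chr1:189640606-189688086), a large kinetochore protein, was at 60.9, 74.0, 81.6 and 65.7 CPM in normal libraries and 37.4, 55.3, 39.9 and 46.8 CPM in NcstnΔKC libraries (-0.65 ± 0.16, adjusted p = 0.0106), again with groups apart. Cenpe, a kinetochore motor of similar size, had a value of -0.26 ± 0.21 (adjusted p = 0.35), and Tpx2, a spindle assembly factor, one of 0.05 ± 0.30 (adjusted p = 0.915). With scaling by total counts alone Cenpe changed sign (0.08), and with scaling by basal keratinocyte genes Tpx2 did (-0.51).

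The 2 genes of the chromosomes went opposite ways. Top2a (ENSMUSG00000020914, chr11:98992943-99024189), the topoisomerase that untangles sister chromatids, was at 65.6, 83.7, 83 and 54.9 CPM in normal libraries and 132, 186, 168 and 159 CPM in NcstnΔKC libraries (1.17 ± 0.17, adjusted p = 0.00106). Mki67 (ENSMUSG00000031004, chr7:135689788-135716379), which encodes Ki-67, the usual stain for dividing cells and a coat of mitotic chromosomes, was at 339, 456, 351 and 276 CPM in normal libraries and 231, 278, 211 and 229 CPM in NcstnΔKC libraries (-0.58 ± 0.17, adjusted p = 0.0211). Top2a had groups that were apart, while those of Mki67 overlapped by the margin between NcstnΔKC replicate 2 and normal replicate 4. The call of Mki67 was lost without NcstnΔKC replicate 3 (-0.52, adjusted p = 0.0661) or 4 (-0.56, 0.0561) and without normal replicate 1 (-0.53, 0.0545), 2 (-0.39, 0.0714) or 3 (-0.52, 0.0634). Ki-67 and Top2a are both used to mark dividing cells, and in these libraries the transcripts gave opposite directions.

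Ratios of counts within a library do not depend on how libraries are scaled. These 4 pairs were chosen after the values were seen, so they are given as a description with no test. For each 100 counts of Mki67 there were 1.03, 1.15, 1.25 and 1.51 counts of Cdk1 in normal libraries and 11.1, 5.98, 7.50 and 6.11 in NcstnΔKC libraries. For each 100 counts of Mki67 there were 19.3, 18.4, 23.6 and 19.9 counts of Top2a in normal libraries and 57.2, 66.9, 79.5 and 69.6 in NcstnΔKC libraries. Both ratios were higher in all 4 NcstnΔKC libraries, and normal replicate 2, with its hair markers, lay close to the other normal libraries in both. Ccnb1 per 100 counts of Cenpf ran from 3.63 to 6.35 in normal and 22.4 to 49.6 in NcstnΔKC libraries, and Cdc20 per 100 counts of Bub1b from 38.2 to 41.1 and 77.9 to 154.5. All 4 ratios were higher in every NcstnΔKC library than in every normal one.

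**Figure D3:**
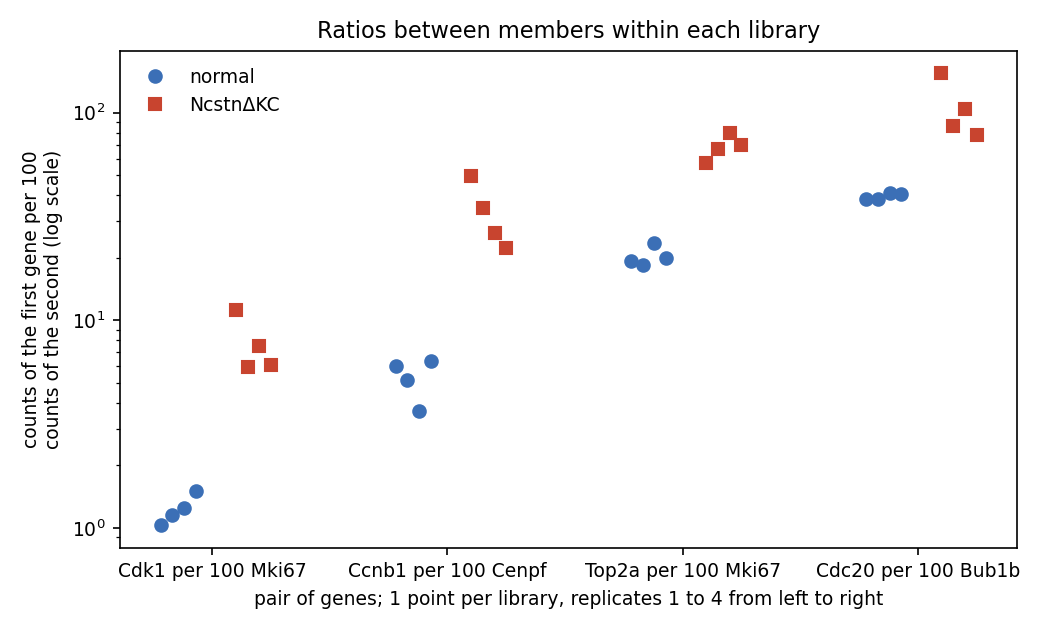
Counts of one mitotic gene per 100 counts of another in the same library (log scale) for 4 pairs, with 1 point per library and replicates 1 to 4 from left to right in each group. In each pair the 4 NcstnΔKC libraries (squares) lie above the 4 normal ones (circles).

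Coding length was set beside the changes. Of the 7 mitotic genes with a coding length over 3000 bases, 3 rose and 2 fell, with a median of 0.17, and of the 17 shorter ones 11 rose and 1 fell, with a median of 0.78. Across all tested genes the same division gave medians of -0.12 (18.7% higher and 28.8% lower) and 0.02 (23.1% and 21.7%), so the long genes had the lower median there too. Top2a (4584 bases) and Kif11 (3156) were over this length and rose, and Kif23 (2859) lay just under it and fell. The part of length in these values was not tested.

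The S-phase and mitotic sets differed in how they varied between libraries. The mean log2 CPM of the 12 S-phase genes was 4.07, 3.76, 3.66 and 3.48 in normal libraries and 4.45, 5.13, 4.93 and 4.81 in NcstnΔKC libraries. That of the 24 mitotic genes was 3.57, 4.22, 3.84 and 3.67 in normal libraries and 4.42, 4.75, 4.38 and 4.40 in NcstnΔKC libraries. In both sets all NcstnΔKC libraries were above all normal ones. The order of the normal libraries was not the same: normal replicate 1 held the highest normal value of 9 of 12 S-phase genes and of 0 of 24 mitotic genes, and normal replicate 2 that of 17 of 24 mitotic genes. Among NcstnΔKC libraries, replicate 2 was the highest for 8 of 12 S-phase and 19 of 24 mitotic genes, and replicate 1 the lowest for 9 of 12 and 12 of 24.

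The difference between both means, which does not depend on scaling, was 0.50, -0.47, -0.18 and -0.19 in normal libraries and 0.03, 0.38, 0.56 and 0.42 in NcstnΔKC libraries. NcstnΔKC libraries leaned to S-phase genes more than normal replicates 2, 3 and 4, but normal replicate 1 lay among them. The medians of log2 fold change, 1.0 and 0.73, differed by 0.27. Between replicates of a group, the difference of the set medians of log2 CPM had a pooled standard deviation of 0.36. Whether S-phase genes rose more than mitotic genes was not tested. Within S-phase genes the changes ran from 0.47 to 1.87, all above 0, and within mitotic genes from -0.85 to 2.06.

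**Figure D4:**
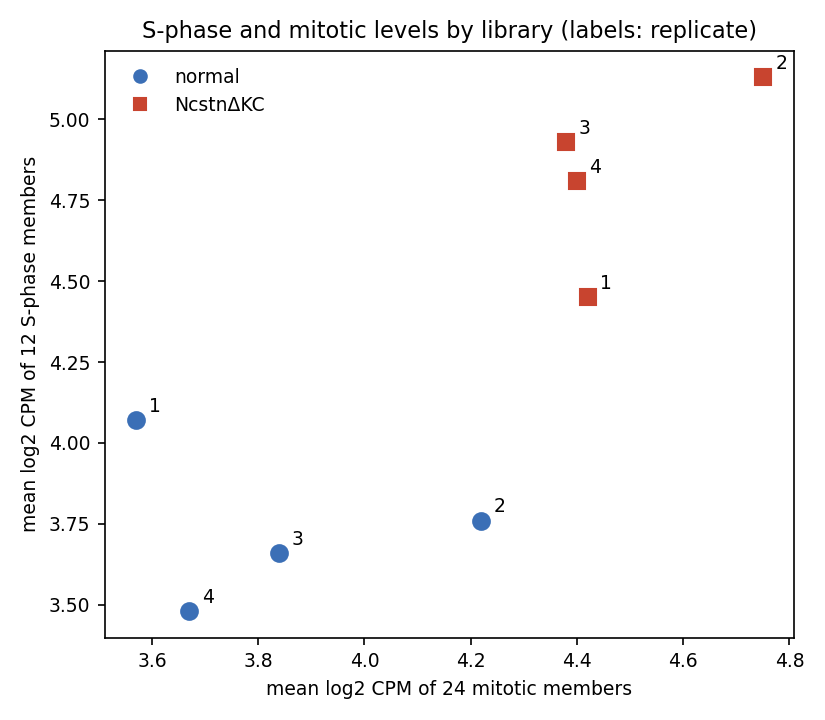
Mean log2 CPM of the 12 S-phase genes (vertical axis) against that of the 24 mitotic genes (horizontal axis), with 1 point per library and its replicate number beside it. NcstnΔKC libraries (squares) lie above and to the right of normal ones (circles); normal replicates 1 and 2 stretch along different axes, by 4.07 on the S-phase and 4.22 on the mitotic scale.

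Within the libraries with Xist (replicates 3 and 4 of each group), 11 of 12 S-phase genes rose, and 14 mitotic genes rose and 3 fell, where 26.3% of tested genes were higher and 25.4% lower. Within those without Xist (replicates 1 and 2), 0 of 39 genes passed in edgeR, where 0.0191% of tested genes were higher and 0.00638% lower, 4 genes in all. At an unadjusted p under 0.05, 13 of the 39 were higher there (33.3%) and 0 lower, against 11.9% and 13.1% of all tested genes. The S-phase median was 1.35 with Xist and 0.88 without, and the mitotic median 0.71 and 0.83. Cdk1 was higher by 1.84 and 2.28 in turn, Pcna by 1.44 and 1.12, and Mki67 was at -0.47 and -0.64. Ccne1 differed most in size, at 2.02 and 0.13. A test of the difference of the group effect between both sides called 0 of the 39 genes and 0 of all genes. At an unadjusted p under 0.05 it gave 1 of the 39, where 5.85% of all genes were below that p.

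Normal and NcstnΔKC skin also differed in makeup. Summed basal keratinocyte markers were at 9319 to 13720 CPM in normal and 13750 to 17500 CPM in NcstnΔKC libraries, and 10 of the 13 rose and 2 fell. Those of suprabasal keratinocytes were at 5812 to 11500 and 4191 to 9190 CPM, and 1 of the 7 rose and 3 fell. For these and the lists that follow, 21.4% of all tested genes were higher and 22.7% lower. Leukocyte markers were at 296 to 526 and 353 to 1092 CPM (3 of 6 rose), macrophage markers at 451 to 955 and 529 to 2929 CPM (4 of 8 rose) and neutrophil markers at 2.89 to 8.60 and 34.0 to 219 CPM (6 of the 6 tested rose). Skeletal muscle markers were at 8088 to 75930 and 1012 to 8384 CPM (12 of 12 fell), and adipocyte markers at 732 to 1709 and 112 to 766 CPM (6 of 9 fell). Fibroblast markers (1 of 8 rose and 2 fell) were at 33640, 34590, 4599 and 5351 CPM in normal libraries, a split along that of Xist. They were at 4436, 9682, 11400 and 12490 CPM in NcstnΔKC libraries, below normal ones without Xist and above them with Xist. NcstnΔKC replicate 1 stood apart from replicates 2, 3 and 4 of its group in makeup. Its macrophage markers summed to 529 CPM against 2253 to 2929, leukocyte markers to 353 against 802 to 1092 and muscle markers to 8384 against 1012 to 3585. Normal replicate 1 had muscle markers of 8088 CPM, against 48460 to 75930 in the other normal libraries. No marker of these lists was at 0 in every library. The part of these cell types in the cell cycle values was not tested.

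Scaling changed the counts of both sets. With libraries scaled to the summed counts of the 13 basal keratinocyte markers, the median of all genes moved to -0.50. Then 6 S-phase genes were higher (Cdt1, Mcm3, Mcm6, Mcm7, Pcna and Rrm2) and 0 lower. Of the G1 regulators Ccnd1 and Ccnd2 were lower. Of the mitotic genes 4 were higher (Cdk1, Ccnb1, Cdc20 and Top2a) and 5 lower (Kif23, Cenpf, Mki67, Cenpe and Ube2c), where 6.38% of all genes were higher and 37.1% lower. With total counts alone the median of all genes was 0.29, and 11 S-phase and 16 mitotic genes were higher and 1, Kif23, was lower, where 33.9% of all genes were higher and 14.2% lower. Relative to the median of all genes, the S-phase median was 1.03 with TMM scaling (trimmed mean of M-values), 1.03 with total counts and 1.02 with basal scaling, and the mitotic median 0.76, 0.78 and 0.69. The values of Cenpf were -0.65, -0.32 and -1.16 under the 3 scalings in that order, and those of Mki67 -0.58, -0.26 and -1.10. Both calls were lost with total counts alone (adjusted p = 0.154 and 0.245).

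**Figure D5:**
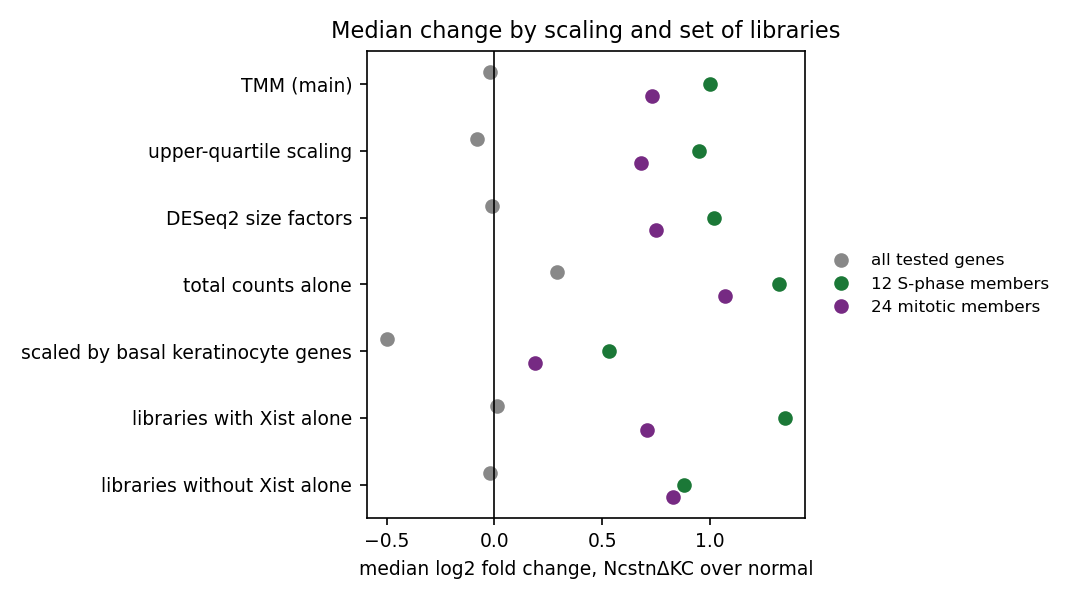
Median log2 fold change, NcstnΔKC over normal (horizontal axis), of all tested genes, the 12 S-phase genes and the 24 mitotic genes under 5 scalings and within each side of the Xist split. Both sets stay right of all genes in each line; with basal scaling they stand at 0.53 and 0.19 against -0.50.

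Per kilobase of gene model, in the authors' FPKM unit, the levels of the 39 genes spanned a wide range in normal skin. Cdkn1a (mean of 31.3 FPKM), Mki67 (31.2), Ccnd2 (24) and Ccnd1 (12.2) were the highest in normal libraries, and Ccnb1 (0.405) and Cdc6 (0.41) the lowest. Cdkn1a and Mki67 did not differ beyond their spread on this scale. In NcstnΔKC libraries Cdk1 was at 3.96 FPKM and Ccnb1 at 2.02 FPKM, from 0.761 and 0.405 FPKM in normal libraries. Rrm2 rose from 2.37 to 11 FPKM and Cdt1 from 2.09 to 9.14 FPKM. FPKM is scaled to total counts, where the median log2 change of all genes was 0.29, against -0.02 with TMM scaling. The rises of these 4 genes are therefore larger in FPKM than in CPM.

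Other genes of the cell cycle were drawn from 11 lists of 200 genes, of which 196 could be tested: 78 rose, 14 fell and 104 did not pass, with a median of 0.53. The shares were 39.8% higher and 7.14% lower, against 21.4% and 22.7% of all tested genes, and the shares of each list below are read against these. Origin recognition, licensing control and helicase activation had 10 of 22 (45.5%) higher and 0 lower at this threshold. At an unadjusted p under 0.05 also 0 were lower, against 26.8% of all tested genes. Orc1, the largest subunit of the origin recognition complex, was at 1.82, 0.806, 0.565 and 1.04 CPM in normal libraries and 5.54, 6.90, 6.84 and 6.65 CPM in NcstnΔKC libraries (2.60 ± 0.34, adjusted p = 0.000633). It was thinly counted in normal libraries, with 4 counts at the lowest, so the size of its change is uncertain. Topbp1, a helper of origin firing, rose by 0.95. Orc1 was more uniform between NcstnΔKC libraries than the MCM genes, with replicate 1 only slightly the lowest.

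Of 29 polymerase, clamp loader and fork genes 7 rose (24.1%) and 4 fell (13.8%), so the share higher was near that of all genes. Fen1, the flap nuclease of Okazaki fragments, rose by 1.39 and Rpa2, of the single-strand binding complex, by 1.17. The polymerase delta subunits Pold4 and Pold2 fell by 1.41 and 0.76. The call of Pold2 was lost without normal replicate 3 (-0.63, edgeR adjusted p = 0.0752) or 4 (-0.65, 0.0753). It was also lost with total counts alone (-0.42, 0.176). Of 7 genes of deoxynucleotide synthesis 4 rose (57.1%) and 0 fell, among them Dck (deoxycytidine kinase, 1.45) and Rrm1, the large subunit that works with Rrm2 (0.97). Rrm1 was at 57.7, 44.0, 52.0 and 45.1 CPM in normal libraries and 76.6, 122, 98.9 and 92.5 CPM in NcstnΔKC libraries, so it rose by less than Rrm2.

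Of the regulators above these genes, few passed. Among 18 E2F and pocket protein genes, 2 rose (Mybl2, the B-Myb factor, 1.31, and Rbl1, p107, 0.76) and 1 fell, 11.1% and 5.56%, both below the shares of all genes. The last was Rb1, the retinoblastoma protein (-0.28 ± 0.10, adjusted p = 0.0472). Its call was lost without NcstnΔKC replicate 2, 3 or 4 or any 1 of the normal libraries (-0.28 to -0.19, adjusted p between 0.0892 and 0.189), and with total counts alone it turned to 0.04. Of 9 other G1 and S cyclins and kinases tested, 6 rose (66.7%) and 0 fell. Cdk6, a partner of D cyclins, was at 82.0, 28.4, 106 and 86.5 CPM in normal libraries and 135, 271, 294 and 297 CPM in NcstnΔKC libraries (1.72 ± 0.40, adjusted p = 0.00811), beside Ccnd1 and Ccnd2, which did not pass. Ccnd3, cyclin D3, rose by 0.60 (adjusted p = 0.0252), with groups apart. Cks2, a small subunit of the kinases, rose by 1.71 and was thinly counted, with 4 counts at the lowest.

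Of 6 inhibitors of the kinases tested, 1 rose (16.7%) and 2 fell (33.3%), where 21.4% of all tested genes were higher and 22.7% lower. Cdkn1b (p27) was at 100.2, 109, 79.3 and 95.4 CPM in normal libraries and 55.4, 56.2, 51.6 and 56.2 CPM in NcstnΔKC libraries (-0.81 ± 0.12, adjusted p = 0.00129), with groups apart. Cdkn2d (p19) rose by 1.76. Cdkn2c (p18) fell by 0.50 (adjusted p = 0.0446), a call that was lost without NcstnΔKC replicate 2, 3 or 4 or any 1 of the normal libraries (-0.52 to -0.38, adjusted p between 0.0505 and 0.159). Of 15 p53 targets other than Cdkn1a 3 rose (20.0%, near the share of all genes) and 1 fell (6.67%). Pmaip1 (Noxa, 2.23) and Phlda3 (0.92) were higher and Ccng1 (cyclin G1, -1.54) lower. For Ccng1 the groups overlapped, at 133, 386, 598 and 440 CPM in normal libraries and 147, 135, 120 and 134 CPM in NcstnΔKC libraries.

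Mitotic lists rose more often than they fell. Kinetochore, checkpoint and passenger genes had 11 of 29 (37.9%) higher and 0 lower, with Ska3 (1.84) and the centromere histone Cenpa (1.27) among them. Of 30 kinesin, spindle and cytokinesis genes 17 rose (56.7%) and 2 fell (6.67%): Kif22 rose by 1.16 and Ect2, the exchange factor that partners centralspindlin, by 1.25, while Stmn1, a microtubule destabiliser, fell by 0.95. Ckap2l, a spindle pole protein, fell by 0.51 (adjusted p = 0.0497), a call that was lost without any 1 of the NcstnΔKC libraries or of normal replicates 1, 2 and 3 (-0.56 to -0.30, adjusted p between 0.0697 and 0.219). Of 18 genes of mitotic entry and exit 12 rose (66.7%) and 2 fell (11.1%), with Cdca5 (sororin, 1.83) and Mastl (Greatwall kinase, 1.60) higher. Pttg1, securin, the inhibitor of separase, was at 13.4, 17.1, 23.4 and 19.3 CPM in normal libraries and 6.21, 5.40, 6.01 and 5.44 CPM in NcstnΔKC libraries (-1.67 ± 0.20, adjusted p = 0.000449), opposite to Cdc20, which leads to its destruction. Arpp19, a target of Mastl, fell by 0.90 (adjusted p = 0.025), with overlapping groups, and did not pass without NcstnΔKC replicate 3 (-0.78, adjusted p = 0.0706) or normal replicate 1, 3 or 4 (-0.74, -0.75 and -0.90, with 0.0851, 0.0888 and 0.0541).

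Of 13 condensin and cohesin genes 5 rose (38.5%) and 2 fell (15.4%). The condensin subunits Ncapg2 and Ncapd3 rose by 1.28 and 0.61. The cohesin subunits Smc1a and Smc3 fell: Smc1a was at 243, 206, 261 and 203 CPM in normal libraries and 80.6, 90.7, 79.2 and 83.2 CPM in NcstnΔKC libraries (-1.45 ± 0.12, adjusted p = 0.000121), and Smc3 fell by 1.07 (adjusted p = 0.000341). The groups were apart for both. The other cohesin genes did not pass, at -0.27 for Rad21, 0.21 for Stag1 and 0.15 for Stag2, and neither did the condensin subunit Smc4 (-0.14).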

How the data were processed

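RNA sequencing of mouse skin gave a count and an FPKM value per Ensembl gene in 4 NcstnΔKC and 4 normal libraries, grouped by their titles. The counts are raw whole numbers as deposited, and the submitters' processing notes name TopHat2 2.0.9, TopHat and HTSeq, with no order or settings, and the builds mm10 and hg38, with no role. The authors' FPKM values were proportional, gene by gene, to the share of the library's total that the gene's count made up. This was checked in 9175 genes that had 50 or more counts in every library, where the factor varied by under 0.1% between libraries. Which annotation release was used, whether counting used the strand and how multi-mapping reads were treated was not given in the sources used here. Reads of antisense neighbours and of near-identical copies therefore cannot be told apart. Shared exon bases and 31-base stretches (1 in 8 sampled) were measured on GENCODE M21 for mm10.

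Genes were filtered with filterByExpr, scaled by TMM and tested by the quasi-likelihood method of edgeR 4.0.16 in R 4.3.3 (robust, two-sided), with Benjamini-Hochberg adjustment over all 15684 genes tested. The common biological coefficient of variation was 0.315. Libraries held 5835422 to 12893174 counts. The scripts were tested on simulated data. The 39 genes, the 11 other lists (200 genes), the marker lists and the rule on which genes to name were chosen with earlier results of these data known. Values in every library are given for Ccnd1, Ccnd2, Cdkn1a, each member that fell, and the 4 S-phase and 8 mitotic members with the lowest p. Of each other list the 2 genes with the lowest p in each direction that passed are named. Cdk2, Foxm1, Aurka and those genes of the other lists that are shown in every library were chosen for this after their values were seen, as were the mentions of Ccnd3, Rad21, Stag1, Stag2 and Smc4. The difference by Xist was tested as an interaction term.

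Alternatives were upper-quartile, DESeq2 (1.42.0), total-count and basal-keratinocyte scaling, no filter, at least 1 CPM in 4 libraries, DESeq2's Wald test, limma-voom (limma 3.58.1), limma-trend on log2 FPKM plus 1 or 0.1, replicate number as a block (replicate block), removal of muscle, adipose, hair, mitochondrial and rRNA-linked genes, each library left out, NcstnΔKC replicate 1 and normal replicate 2 left out together, Xist as a covariate, each side of the Xist split and a least log2 change of 1. The filter of at least 1 CPM kept exactly the 15684 genes of filterByExpr, so it repeated the main fit and is no separate check. At least 5 CPM in 4 libraries was added after seeing the data. Python 3.11.15 with pandas 2.3.3 and matplotlib 3.10.9 wrote the tables and drew the figures.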

Additional observations from a re-analysis of the deposited data

Results flagged for a closer look

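In 4 of the 78 groups of 4 libraries (39 genes in 2 groups), 1 library lay far from the other 3 relative to the range of its group. Chance flags about 1 in 20 groups. Cdt1 was at 7.59 CPM in normal replicate 1 and 3.83 to 4.43 CPM in the other normal libraries. Cdk2 was at 29.8 CPM in the same library and 21.2 to 22.6 CPM in the others. Cdkn1a was at 199 CPM in NcstnΔKC replicate 1 and 83.4 to 95.0 CPM in the other NcstnΔKC libraries. Hmmr was at 24.9 CPM in NcstnΔKC replicate 2 and 16.1 to 17.5 CPM in the others.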

How the results depend on the processing

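The S-phase median stayed above the mitotic median in each of the 26 alternatives except a log2 change of at least 1, which gives no median. The alternatives reuse the same libraries, and scaling largely cancels in this difference, so they cannot decide whether it exceeds the spread between libraries. Without Xist the difference was 0.06. Of the 28 called genes, 19 kept their call in all but a log2 change of at least 1, basal scaling and the libraries without Xist. With total counts alone 1 mitotic gene was lower, the mitotic median was 1.07, and 120 other cell cycle genes were higher and 7 lower. With basal scaling 6 S-phase and 4 mitotic genes were higher, and 5 mitotic genes and 2 G1 regulators were lower. The medians were then 0.53 and 0.19, and 21 other genes were higher and 25 lower. With no filter 86 other genes were higher and 8 lower, where 16.3% of all genes were higher and 13.0% lower. On log2 FPKM plus 1 or plus 0.1, 1 mitotic gene was lower, 119 other genes were higher and 7 lower (34.1% and 13.5%, or 33.9% and 13.5%, of all genes), and with 0.1 the mitotic median was 1.04. A log2 change of at least 1 left 6 S-phase and 9 mitotic genes higher and 0 mitotic genes lower, and 35 other genes higher and 5 lower, where 10.2% and 14.7% of all genes were called. With Xist alone the S-phase median was 1.35 and the difference of medians 0.64. Without Xist 0 genes were called in every count, while at an unadjusted p under 0.05 the S-phase and mitotic genes had 4 and 9 higher (33.3% and 37.5%) and the other genes 31 higher and 8 lower (15.7% and 4.06%), against 11.9% and 13.1% of all genes. The cause of these shifts was not tested.

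A replicate block left 7 S-phase genes higher, without Cdc6, Mcm2, Mcm4 and Cdk2, and its calls covered 18.6% and 19.5% of all genes. The numbers did not pair the libraries: deviations of equally numbered libraries correlated at -0.03, -0.04, -0.03 and 0.22, and not every library correlated best with its own number. Leaving out each library in turn gave 8 to 11 S-phase genes higher, 11 to 17 mitotic genes higher and 2 to 3 lower, 64 to 91 other genes higher and 8 to 16 lower, an S-phase median of 0.89 to 1.22, a mitotic median of 0.56 to 0.90 and a difference of 0.19 to 0.49, where 17.4% to 24.4% of all genes were higher and 16.8% to 26.0% lower.

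Some values near 0 changed sign, none of them called by edgeR with TMM scaling and all libraries apart from Rb1. With total counts alone Ccnd2 was at 0.08, Cenpe at 0.08 and Rb1 at 0.04; on log2 FPKM plus 1 they were at 0.10, 0.06 and 0.05, and plus 0.1 at 0.11, 0.08 and 0.05. Basal scaling put Cdkn1a at -0.36, Bub1b at -0.37 and Tpx2 at -0.51. Tpx2 was at -0.00 with upper-quartile scaling and with at least 5 CPM in 4 libraries, and at -0.18 without Xist. Ccnd2 was at 0.22 with Xist alone. Over the libraries left out in turn, Tpx2 ran from -0.15 to 0.32, Cdkn1a from -0.28 to 0.33 and Ccnd2 from -0.38 to 0.08. Without NcstnΔKC replicate 1 and normal replicate 2 together Cdkn1a was at -0.11. Genes at a few counts, such as Ccne1, limit what a missed call can show.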
